A study of Mus musculus with 9 samples.

Results

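The amino acid and ATF4 stress response was followed as a module of 37 genes in the RNA of mouse CD4 T cells. The members were chosen by gene symbol, with no rule on their values but with earlier results of these data known. Each symbol was found on 1 of the 23171 gene rows of the deposited table. The members comprise 5 transcription factors of the response, 7 stress-induced regulators, 8 enzymes of amino acid synthesis and one-carbon metabolism, 6 amino acid transporters and 11 cytosolic tRNA synthetases. Stc2 averaged under 1 base per Mb and was not tested, which left 36.

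The tissue was spleen and lymph nodes, and the strain C57BL6. Chimeric antibodies that bring an antigen to dendritic cells had been given 5 days before sorting, per the labels, and the sorted T cells were cultured for 12 h with antigen-presenting cells, which stimulated them again, before a second sort. The groups were Hopx high (3 libraries), Hopx low (3 libraries) and naive (3 libraries), and all 9 libraries carry the same strain, tissue and treatment labels. Hopx, the protein the groups are named for, has a homeodomain but lacks DNA binding. The study asks how RNA after restimulation depends on the Hopx level of antigen-specific cells. How Hopx was read for the sort, the age of the mice, which animals gave the naive cells and whether replicates were separate animals are not in the labels. The p-values therefore measure only the spread between these samples, which may be technical.

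In the integrated stress response, kinases that sense uncharged tRNA, misfolded protein, heme shortage or viral RNA phosphorylate the initiation factor eIF2α. Bulk translation then slows while the Atf4 mRNA is translated more, so ATF4 is controlled largely at the level of protein and not of its RNA. ATF4 pairs with C/EBP proteins and other bZIP factors and binds C/EBP-ATF response elements at genes for amino acid synthesis, uptake and tRNA charging, and PPP1R15A, also called GADD34, brings a phosphatase to eIF2α that ends the response. T cells draw on this programme when activation raises their demand for amino acids.

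Summed coverage was 203 to 800 megabases in Hopx high libraries, 330 to 442 in Hopx low and 63.3 to 289 in naive. Values below are a gene's bases of coverage per megabase of gene coverage in the library (bases per Mb). If reads had 100 bases, 1 read adds 0.125 to 1.58 to such a value. Naive replicates 1 and 2 differed by about the sampling noise, with a median chi-square ratio of 0.971 against 6.35 to 17.8 in other pairs within groups, and were counted as 1 sample, so n is 3 for Hopx high, 3 for Hopx low and 2 for naive. These 2 naive libraries stand apart from naive replicate 3: their median log2 value over tested genes was 3.72 and 3.96, against 5.02 in naive replicate 3 and 4.21 to 5.03 in Hopx libraries. Xist, expressed in females, was at most 0.4001 bases per Mb in Hopx libraries and 76.1 to 263 in naive, while Y-linked Ddx3y was 30.7 to 85.5 in Hopx libraries and at most 0.3004 in naive. Sex and group thus cannot be told apart against naive. The 8 T cell markers summed to 1555 to 2516 bases per Mb across Hopx high libraries, 1648 to 2638 in Hopx low and 1007 to 2039 in naive, and of the 2 CD8 T cell markers Cd8a was at 0 in every library but 1 and the sum was 14.8 to 31.1, 25.3 to 31.4 and 15.6 to 23.8 in the same groups. Hopx itself was 8.95, 7.79 and 4.89 bases per Mb across Hopx high libraries, 3.32, 6.90 and 3.29 in Hopx low and 0, 0 and 1.64 in naive, so Hopx high and Hopx low overlapped.

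The promoters of the members were read first, because ATF4 acts there. In RefSeq windows of GRCm38.p6, from 250 bases before to 50 after the gene start, the core of the C/EBP-ATF response element, TGATGNAA on either strand (TTNCATCA on the other), was found for 12 of the 31 members that have a window, or 38.7%, against 4.51% of 27025 genes. Many members are listed because they are known ATF4 targets, so this share says nothing new about them, and a match is a description of letters and not a bound site. The windows of 30 bases are given because 2 of the 3 genes called in any comparison, Chac1 and Asns, hold the core. Each runs 5′ to 3′ on the gene's strand, with the core in capitals.
Chac1, chr2:119351038-119351067, plus strand: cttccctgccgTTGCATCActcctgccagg
Asns, chr6:7693214-7693243, minus strand: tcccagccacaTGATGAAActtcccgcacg
Trib3, chr2:152344028-152344057, minus strand: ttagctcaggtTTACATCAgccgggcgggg
Atf3, chr1:191183425-191183454, minus strand: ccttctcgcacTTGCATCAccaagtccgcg
Pycr1, chr11:120643833-120643862, minus strand: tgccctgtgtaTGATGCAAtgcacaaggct
Slc7a11, chr3:50443661-50443690, minus strand: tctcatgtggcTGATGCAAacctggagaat
Gars, chr6:55037960-55037989, plus strand: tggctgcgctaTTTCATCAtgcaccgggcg

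Relative to the gene start the core began at -193 in Chac1, -23 in Asns, -30 in Gars, -110 in Atf3, -103 in Pycr1, -112 in Herpud1 and -15 in Tars. It began at 15 in Trib3, 8 in Iars and 4 in Yars, after the start, and at 2 places in Slc7a11 (-66 and -47) and Aars (-112 and 10). The third called gene, Ppp1r15a, has none of these cores in its window. It holds the palindrome TGACGTCA, which reads the same on both strands and overlaps no core, an ATF/CREB element searched for after the window had been seen. The palindrome is held by 2.03% of genes and by no other member. Ddit3, below naive in every Hopx library, holds neither the core nor the palindrome in its window. The 250 bases before the start are given for Ppp1r15a and Chac1, with the core or palindrome in capitals. These genes were picked because they differed in opposite directions, and a link of the letters to direction was not tested.
Ppp1r15a, chr7:45526269-45526518, minus strand: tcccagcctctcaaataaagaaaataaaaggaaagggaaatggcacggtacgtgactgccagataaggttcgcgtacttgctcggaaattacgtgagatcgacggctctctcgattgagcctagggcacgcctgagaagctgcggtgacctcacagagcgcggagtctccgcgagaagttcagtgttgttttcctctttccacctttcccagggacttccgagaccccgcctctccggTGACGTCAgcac
Chac1, chr2:119350992-119351241, plus strand: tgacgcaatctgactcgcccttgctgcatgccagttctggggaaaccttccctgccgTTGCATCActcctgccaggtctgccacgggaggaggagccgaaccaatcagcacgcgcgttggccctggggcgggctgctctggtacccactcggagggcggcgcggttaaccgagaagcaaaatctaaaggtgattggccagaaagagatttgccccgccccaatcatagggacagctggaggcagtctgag

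Chac1 and Asns rose in Hopx high cells over naive cells and Ppp1r15a fell, while most of the module did not pass the test in any comparison. Hopx high against naive called 2 of 36 members higher, where 3.3% of 10825 genes tested were higher, and 1 lower, where 0.499% were lower. Hopx low against naive called 1 member higher, Chac1, with 0.296% of all genes called higher, and 0 lower. Hopx high against Hopx low called 0 of 36 members, at a background of 0.489% higher and 0.148% lower among 10846 genes, and 4 members had an unadjusted p under 0.05, against 9.77% of all genes. With the replicate number as a block this comparison called 1 member, Ppp1r15a, lower, and 8 members had an unadjusted p under 0.05, against 1384 of 10846 genes. The calls are from limma with Benjamini-Hochberg adjustment at 0.05 on log2(bases per Mb + 1), a scale that understates changes of low genes. Both comparisons with naive share the naive libraries, so they are not separate evidence.

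By sign alone, 27 of 36 members had a positive log2 difference for Hopx high against naive (56.9% of all genes), with a median of 0.45 over the members and 0.15 over all genes. For Hopx low against naive 33 of 36 were positive (74.1% of all genes), with medians of 0.45 and 0.38. For Hopx high against Hopx low 12 of 36 were positive (30.3% of all genes), with medians of -0.16 and -0.25. Scaled by the median gene instead of by total coverage, the all-gene medians became 0.019, 0.025 and -0.0095 in the same order of comparisons. The members' counts then moved to 23, 18 and 24 of 36 positive, with member medians of 0.30, 0.036 and 0.094, so most members were then positive for Hopx high against Hopx low, and no majority was left for Hopx low against naive. In bulk RNA, fewer cells with a transcript and less of it per cell cannot be told apart.

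**Figure D1:**
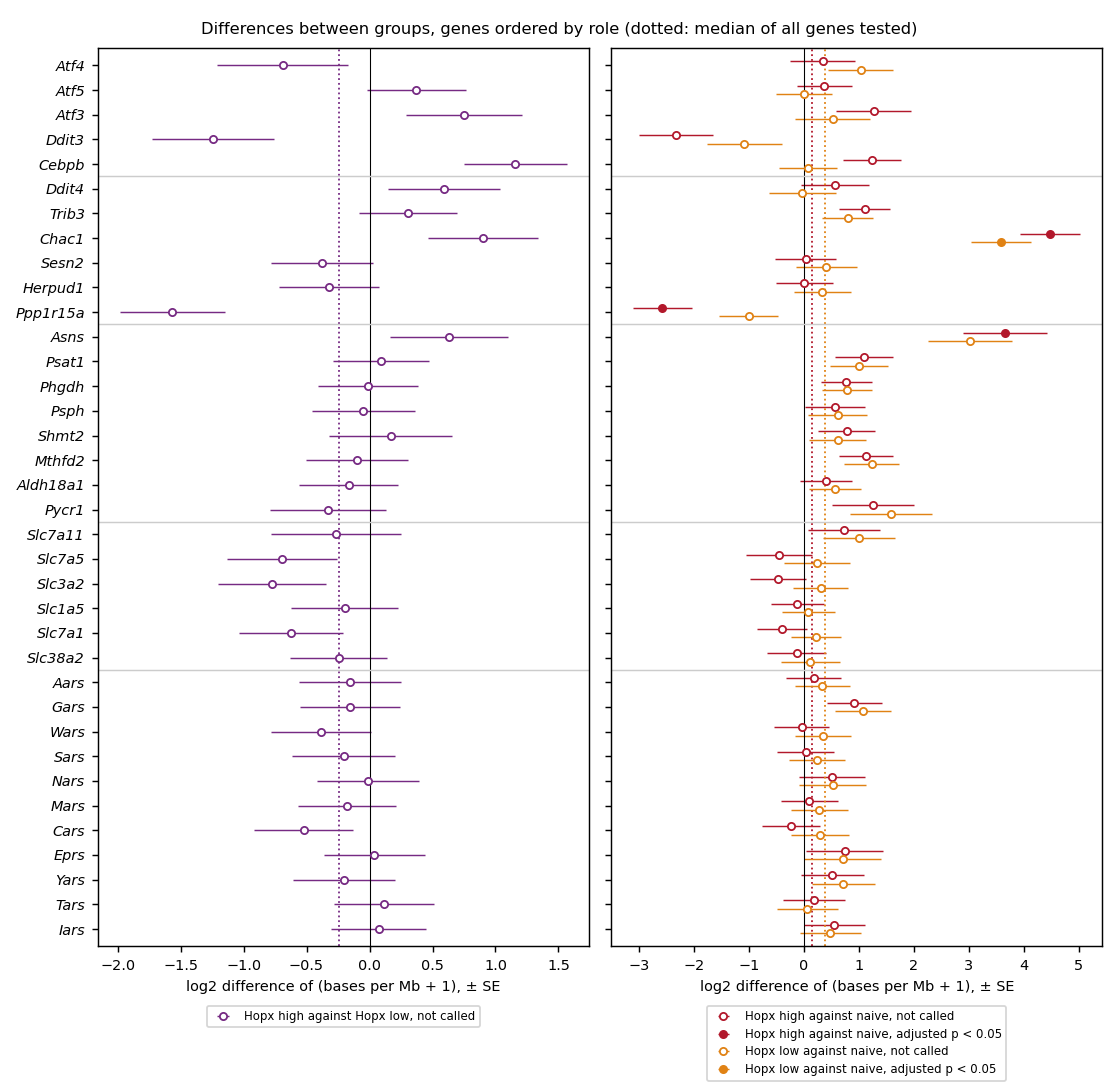
Log2 differences of (bases per Mb + 1) with their SE for the 36 tested genes, ordered by role, for Hopx high against Hopx low on the left and both Hopx groups against naive on the right. Filled points passed an adjusted p of 0.05 and dotted lines mark the median of all genes: Chac1 stands at 4.47 and 3.57 over naive, Asns at 3.66 and Ppp1r15a at -2.57 in Hopx high, and no point is filled on the left.

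Chac1, which encodes an enzyme that degrades glutathione, stood far above naive in both Hopx groups. It lies at chr2:119351242-119354326 of GRCm38.p6 on the plus strand. It measured 457, 592 and 235 bases per Mb across Hopx high libraries, 258, 339 and 111 in Hopx low and 19.5, 17.3 and 15.7 in naive. Every Hopx library was above every naive library, and the 3 naive libraries lay close together, replicate 3 included. Hopx high averaged 428 ± 181 and naive 17.1 ± 1.91 (SD, n = 3 and 2), a log2 difference of 4.47 ± 0.54 (SE, adjusted p = 0.000109, limma), and Hopx low averaged 236 ± 116 (n = 3), a log2 difference of 3.57 ± 0.54 (SE, adjusted p = 0.00306). By p it was 11 of 10825 genes in the first comparison and 10 in the second. Hopx low against naive lost the call with scaling by the median gene (adjusted p = 0.0595), without the filter on low values (0.141) and with only these groups in the fit (0.104), while Hopx high against naive kept it under each alternative run.

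Between the Hopx groups Chac1 was higher in Hopx high in 3 of 3 pairs of replicate number, by 0.82, 0.80 and 1.08 on the log2 scale, although the ranges overlapped. At 0.90 ± 0.44 (SE, adjusted p = 0.499) this difference missed the threshold.

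Ppp1r15a, the stress-induced phosphatase subunit that restores translation, was ordered the other way. It lies at chr7:45522917-45526268 on the minus strand. It measured 172, 113 and 52.5 bases per Mb across Hopx high libraries, 399.6, 268 and 254 in Hopx low and 741, 909.8 and 444 in naive. Every Hopx high library was below every Hopx low library and every Hopx low library below every naive library, an order that 0.767% of the 10825 genes and no other member showed. Group means were 113 ± 59.9 in Hopx high, 307 ± 80.3 in Hopx low and 635 ± 270.0 in naive (SD, n = 3, 3 and 2). Hopx high fell below naive by a log2 difference of -2.57 ± 0.53 (SE, adjusted p = 0.00752, limma), a call lost only with no filter on low values (0.0651). Hopx low against naive, at -1.01 ± 0.53 (SE), did not pass (adjusted p = 0.643).

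Hopx high against Hopx low missed the threshold for Ppp1r15a, at -1.57 ± 0.41 (SE, adjusted p = 0.0690). The gene was lower in Hopx high in 3 of 3 pairs of replicate number, by -1.21, -1.23 and -2.25. With the replicate number as a block it passed (adjusted p = 0.0276), as it did without Hopx high replicate 1 (-1.95, adjusted p = 0.0368), and with all groups in 1 fit it did not (0.608). In the authors' deposited table the ratio of Hopx high to Hopx low for Ppp1r15a is 0.367 with an unadjusted p of 0.0282. Tulp2, whose exons overlap it on the other strand, was at 0 in all 9 libraries.

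**Figure D2:**
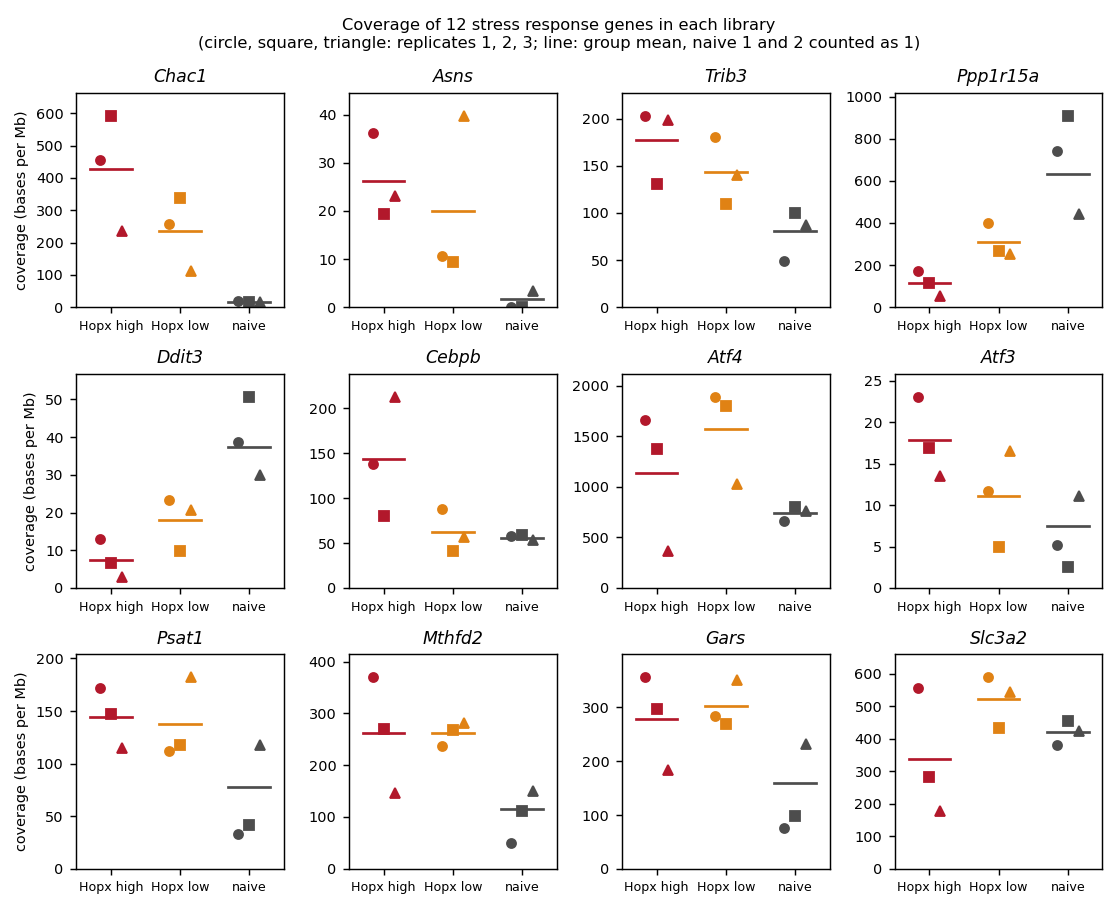
Coverage in bases per Mb of 12 members in each library, with Hopx high, Hopx low and naive from left to right, a symbol for each replicate number and a line at the group mean, for which naive replicates 1 and 2 count once. Chac1 lies between 111 and 592 in the Hopx libraries and under 20 in naive, while Ppp1r15a steps up from Hopx high through Hopx low to naive with no overlap.

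The other stress-induced regulators did not pass in any comparison. Trib3, a pseudokinase that binds ATF4 and dampens it, measured 203, 130.3 and 199 in Hopx high, 180.2, 109.7 and 141 in Hopx low and 49.2, 99.7 and 87.0 in naive. Both Hopx groups lay above naive without overlap, with log2 differences of 1.10 ± 0.47 (SE) for Hopx high (adjusted p = 0.239) and 0.80 ± 0.47 (SE) for Hopx low (adjusted p = 0.673). Ddit4, an inhibitor of mTORC1, measured 80.2, 41.8 and 123 in Hopx high, 89.7, 23.0 and 56.7 in Hopx low and 24.6, 54.0 and 63.5 in naive, with overlapping ranges in each comparison. Sesn2, a leucine-binding inhibitor of mTORC1, measured 88.4, 45.7 and 39.6 in Hopx high, 94.1, 75.6 and 50.03 in Hopx low and 81.1, 80.7 and 34.8 in naive. The groups again overlapped for Sesn2, with log2 differences of -0.38, 0.03 and 0.41 for Hopx high against Hopx low, Hopx high against naive and Hopx low against naive. Herpud1, which acts in the disposal of misfolded endoplasmic reticulum proteins, spanned 56.2 to 142 in Hopx high, 93.5 to 152 in Hopx low and 62.2 to 112 in naive. Stc2, a secreted glycoprotein, stayed at or below 1.10 in every library and was at 0 in each naive one.

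Among the transcription factors, Atf4 RNA was abundant and did not separate the Hopx groups from naive as Chac1 did. Per kilobase of exon it had the highest level of the module, 487 bases per Mb per kb as the mean of the 3 group means, ahead of Shmt2 at 387 and Chac1 at 139, with Slc7a11 at 0.135 and Stc2 at 0.0632 the lowest. In bases per Mb, Atf4 measured 1655, 1376 and 365 in Hopx high, 1892, 1795 and 1030.0 in Hopx low and 658, 797 and 760.0 in naive. Hopx high replicate 3 was below every naive library and the other Hopx libraries were above all of them. The log2 difference of Hopx high against naive was 0.34 ± 0.59 (SE, adjusted p = 0.873) and turned to -0.069 without Hopx high replicate 1, and that of Hopx low against naive was 1.03 ± 0.59 (SE, adjusted p = 0.668). Against Hopx low, Hopx high stood at -0.69 ± 0.52 (SE, adjusted p = 0.664), lower in 3 of 3 pairs by -0.19, -0.38 and -1.49, and the difference was -0.0087 without Hopx high replicate 3. In Hopx high replicate 3, the library with the lowest Atf4, Lars2 alone held 148262 bases per Mb, against 4212 to 42472 in the other 8 libraries, and its part in the low value was not tested.

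Ddit3 encodes CHOP, a bZIP factor induced by ATF4, and its RNA was low. It measured 12.9, 6.68 and 2.99 bases per Mb across Hopx high libraries, 23.4, 9.68 and 20.7 in Hopx low and 38.8, 50.8 and 30.1 in naive. Every Hopx library was below every naive library. Hopx high against naive was -2.33 ± 0.68 (SE) and missed the threshold (adjusted p = 0.0608, limma), and it passed with scaling by the median gene (-2.52), quantile normalization (-2.45) or totals without Gas5 (-2.53), among others. Hopx low against naive was -1.08 ± 0.68 (SE, adjusted p = 0.695) and Hopx high against Hopx low -1.24 ± 0.49 (SE, adjusted p = 0.343), lower in 3 of 3 pairs. Ddit3 overlaps Mars on the other strand only at its end, chr10:127296221-127296288, of 1713 exon bases. Without the counting strand, reads of the 2 genes cannot be told apart in that stretch.

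Cebpb, a partner of ATF4 at the response element, measured 138, 80.0 and 213 in Hopx high, 88.4, 41.6 and 56.3 in Hopx low and 57.8, 59.0 and 53.7 in naive. Hopx high exceeded naive without overlap and exceeded Hopx low in 3 of 3 pairs, by 0.64, 0.93 and 1.90. Neither difference passed, at 1.24 ± 0.53 (SE) against naive (adjusted p = 0.247) and 1.16 ± 0.41 (SE) against Hopx low (adjusted p = 0.260). Tmem189, which overlaps it on the other strand, measured 214, 113 and 103 in Hopx high and 225, 118 and 112 in Hopx low.

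Atf3, a repressor and activator induced by stress, measured 23.1, 17.0 and 13.5 in Hopx high, 11.7, 4.93 and 16.5 in Hopx low and 5.15, 2.496 and 11.1 in naive, which is close to the level of a few reads in the shallow naive libraries. Hopx high was above naive without overlap, at 1.27 ± 0.68 (SE, adjusted p = 0.405). Atf5, a related bZIP factor, measured 112, 67.4 and 67.1 in Hopx high, 88.0, 46.2 and 57.1 in Hopx low and 58.5, 84.8 and 52.6 in naive, and its groups overlapped in each comparison. Its exons overlap Nup62 and Il4i1 on the other strand, and Nup62 measured 278, 176 and 119.5 in Hopx high, 257, 216 and 348 in Hopx low and 145, 190.1 and 168 in naive. As a set the 5 factors split: Atf5, Atf3 and Cebpb had positive log2 differences for Hopx high against Hopx low and Atf4 and Ddit3 negative ones, and none of the 5 passed.

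**Figure D3:**
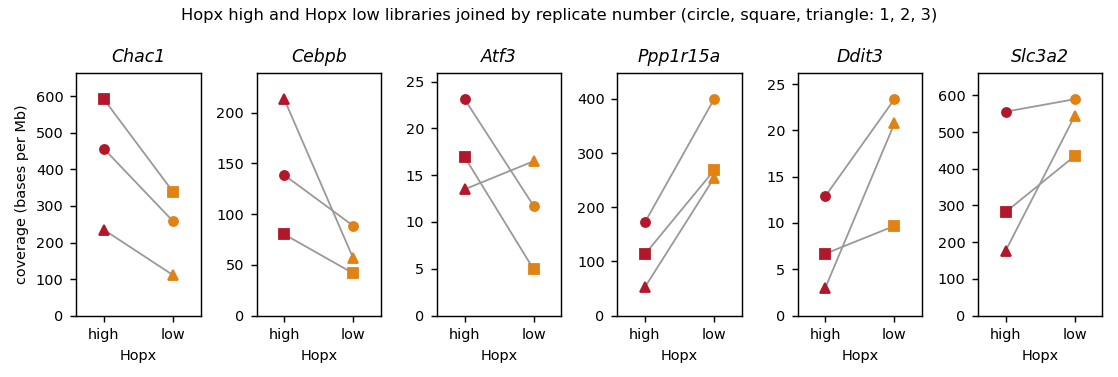
Coverage in bases per Mb of 6 members in Hopx high on the left of each panel and Hopx low on the right, with lines joining libraries of the same replicate number. Chac1 and Cebpb were higher in Hopx high in each of 3 pairs and Ppp1r15a, Ddit3 and Slc3a2 lower, while 1 of the 3 Atf3 lines runs the other way.

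The synthesis enzymes had 8 of 8 positive log2 differences against naive for Hopx high and for Hopx low, with medians of 0.94 and 0.89. All 8 stayed positive under each of the 3 other scalings, with medians of 0.75 to 0.78 for Hopx high and 0.48 to 0.70 for Hopx low, and with naive replicate 3 as the naive sample 6 of 8 and 8 of 8 were positive. Asns, asparagine synthetase, was the 1 member of the role that passed. It lies at chr6:7675165-7693209 on the minus strand. It measured 36.1, 19.4 and 23.1 bases per Mb across Hopx high libraries, 10.6, 9.36 and 39.8 in Hopx low and 0, 0 and 3.34 in naive. It was at 0 in naive replicates 1 and 2, where 1 read of 100 bases would add 1.58 and 1.16 bases per Mb, and Hopx low replicate 3 had the highest value. Hopx high averaged 26.2 ± 8.78 against 1.67 ± 2.36 in naive (SD, n = 3 and 2), a log2 difference of 3.66 ± 0.76 (SE, adjusted p = 0.00823, limma). The call was lost with the values as deposited (adjusted p = 0.0516), with no filter (0.0896), without Hopx high replicate 1 (0.0955) and without Hopx high replicate 3 (0.0696). Hopx low against naive was 3.03 ± 0.76 (SE, adjusted p = 0.101) and did not pass.

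Serine is made by the enzymes of Phgdh, Psat1 and Psph in turn. Phgdh measured 329.8, 276 and 213 in Hopx high, 310.2, 208 and 308 in Hopx low and 175, 186 and 136 in naive, above naive without overlap in both Hopx groups. Psat1 measured 172, 147 and 115 in Hopx high, 112, 118 and 182 in Hopx low and 32.9, 41.5 and 118 in naive, where replicate 3 reached the lower Hopx values. The log2 differences against naive were 0.77 and 1.09 for Phgdh and Psat1 in Hopx high (adjusted p = 0.464 and 0.329), so neither passed. Psph spanned 55.4 to 181 in Hopx high, 87.1 to 127 in Hopx low and 54.2 to 121 in naive, and it shares exon sequence with Cct6a on the other strand, which spanned 63.5 to 113, 57.2 to 163 and 36.5 to 113 in the same groups.

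The mitochondrial one-carbon enzymes take serine further. Shmt2, which splits serine into glycine and a one-carbon unit, measured 1997, 936 and 1473 in Hopx high, 1852, 984 and 1065 in Hopx low and 856, 1216 and 642 in naive. Mthfd2, which oxidises that unit, measured 369.7, 269 and 145 in Hopx high, 238, 268 and 281 in Hopx low and 50.6, 112 and 151 in naive. Mthfd2 lay above naive without overlap in Hopx low, at 1.23 ± 0.50 (SE, adjusted p = 0.449), and overlapped it in Hopx high, at 1.13 ± 0.50 (SE, adjusted p = 0.267). For proline, Aldh18a1, which catalyses its first steps, spanned 123 to 243 in Hopx high, 175 to 225 in Hopx low and 89.2 to 185 in naive, and Pycr1, which catalyses the last, spanned 5.26 to 13.3, 8.57 to 14.5 and 0 to 8.34 in the same groups. None of the 8 enzymes passed between Hopx high and Hopx low, where 3 of 8 differences were positive with a median of -0.031, and 7 of 8 with a median of 0.22 under scaling by the median gene.

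In the fits reported, which have no replicate block, none of the 6 transporters passed in any comparison or had an unadjusted p under 0.05. For Hopx high against Hopx low 0 of 6 log2 differences were positive, with a median of -0.44 over the role and -0.25 over all genes, and 2 of 6 under scaling by the median gene, with a median of -0.26. For Hopx high against naive 1 of 6 was positive, and 4 of 6 without naive replicate 3. For Hopx low against naive 6 of 6 were positive with a median of 0.23, and 1 of 6 with a median of -0.18 under scaling by the median gene. Slc7a5 and Slc3a2 form the leucine transporter LAT1 with its CD98 heavy chain. Slc7a5 measured 264, 273 and 144 bases per Mb across Hopx high libraries, 540.2, 506 and 161 in Hopx low and 533, 574 and 162 in naive. Replicate 3 was the lowest library of each group, and within the pairs Hopx high was below Hopx low by -1.03, -0.89 and -0.16. Slc3a2 measured 556, 282 and 177 in Hopx high, 589.7, 435 and 544 in Hopx low and 381, 454 and 423 in naive, with a log2 difference of -0.77 ± 0.43 (SE) for Hopx high against Hopx low (adjusted p = 0.560).

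Slc7a11, the cystine and glutamate exchanger, was near the limit of detection at 3.13, 2.65 and 0.585 in Hopx high, 2.74, 3.70 and 1.35 in Hopx low and 0, 0.231 and 1.70 in naive. Slc7a1, a transporter of arginine and lysine, was below every Hopx low library in every Hopx high library, at 523, 388 and 419 in Hopx high and 693, 628 and 711 in Hopx low. Its log2 difference was -0.62 ± 0.41 (SE, adjusted p = 0.629), and in the authors' deposited table the ratio for Slc7a1 is 0.654 with an unadjusted p of 0.00827. Slc1a5, a glutamine carrier, spanned 349 to 680 in Hopx high, 363 to 658 in Hopx low and 378 to 556 in naive, and Slc38a2, a carrier of small neutral amino acids, spanned 146 to 186, 164 to 252 and 89.1 to 376 in the same groups.

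The tRNA synthetases, which charge tRNA with its amino acid, differed widely between libraries of the same group. The 11 cytosolic synthetases summed to 2122, 1530 and 1136 bases per Mb across Hopx high libraries, 1723, 1361 and 2211 in Hopx low, and 722, 804 and 2068 in naive. Naive replicate 3 was exceeded only by Hopx high replicate 1 and Hopx low replicate 3, while naive replicates 1 and 2 were below all Hopx libraries. In the fits reported none of the 11 passed in any comparison, and 1 had an unadjusted p under 0.05, for Hopx low against naive. The medians were -0.16 for Hopx high against Hopx low (3 of 11 positive), 0.18 for Hopx high against naive (9 of 11) and 0.34 for Hopx low against naive (11 of 11). Scaling by the median gene gave 0.098 (9 of 11), 0.023 (7 of 11) and -0.067 (5 of 11) in the same order, and totals without Gas5 gave -0.0021 (5 of 11) for Hopx high against naive. Against naive replicate 3 alone the medians for Hopx high and Hopx low were -0.51 and -0.38, and against naive replicates 1 and 2 alone they were 0.94 and 1.04. The sign of the role's median thus depended on the scaling and on which naive libraries were used.

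Aars, which charges alanine tRNA, measured 422, 303 and 207 in Hopx high, 369, 259 and 384 in Hopx low and 165, 187 and 393 in naive. Gars, which charges glycine tRNA, measured 356, 297 and 184 in Hopx high, 284, 269.8 and 352 in Hopx low and 76.0, 97.9 and 232 in naive, with log2 differences over naive of 0.92 ± 0.50 (SE) for Hopx high (adjusted p = 0.417) and 1.07 ± 0.50 (SE) for Hopx low (adjusted p = 0.571). Hopx low lay above naive without overlap for Gars and Hopx high did not. Cars, which charges cysteine tRNA, was the 1 synthetase below every Hopx low library in every Hopx high library.

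**Figure D4:**
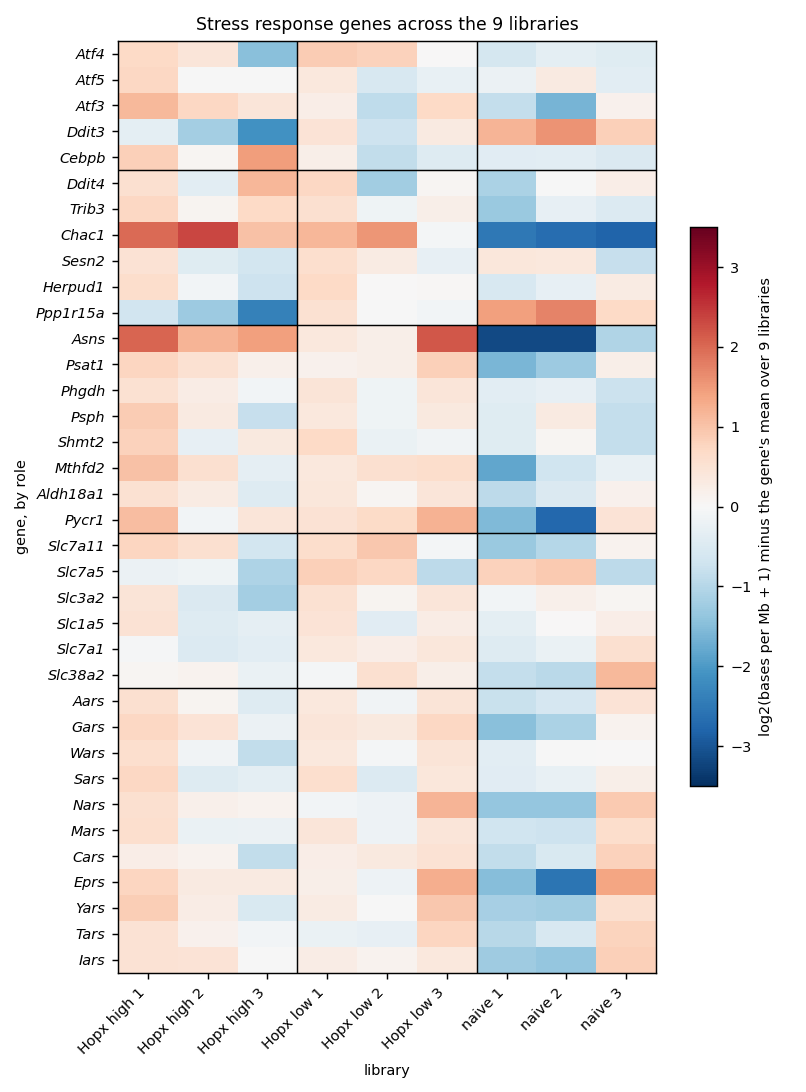
Log2(bases per Mb + 1) of the 36 tested genes in each of the 9 libraries, as the difference from the gene's own mean over the libraries, with genes ordered by role and Hopx high, Hopx low and naive from left to right. Chac1 and Asns are below their means in each naive library and Ppp1r15a and Ddit3 above, while most synthetases at the bottom are low in naive 1 and naive 2 and high in naive 3.

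Groups without overlap were counted against the same count over all genes. Hopx high was above naive in every library for 6 of 36 members (14.2% of all genes): Asns, Atf3, Cebpb, Chac1, Phgdh and Trib3. It was below in every library for 2, Ddit3 and Ppp1r15a (7.68% of all genes). Hopx low was above naive in every library for 8 members (17.1% of all genes) and below for 2 (2.36% of all genes). Hopx high was above Hopx low in every library for 0 members (4.55% of all genes) and below for 3, Cars, Ppp1r15a and Slc7a1 (9.98% of all genes). The shares of members were 16.7%, 5.56%, 22.2%, 5.56%, 0% and 8.33% in that order.

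The differences from naive depended on naive replicate 3, for the members and for all genes. Without it, only the mean of the 2 near-identical naive libraries is left. The members' median log2 difference was then 0.79 for Hopx high and 0.91 for Hopx low. Over all genes the medians were 0.67 and 0.88, in place of 0.15 and 0.38. Naive replicate 3 as the naive sample was an alternative chosen after the data were seen. The members' medians were then -0.0090 for Hopx high and 0.14 for Hopx low, and those of all genes -0.44 and -0.15. A lone naive sample is assumed in these fits to vary like the other groups, so calls from them are not counted here.

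Of the 12 tested members with the response element core, 12 of 12 had a positive log2 difference for Hopx high against naive, with a median of 0.82, and 13 of the 18 without it, with a median of 0.39. With naive replicate 3 as the naive sample these became 6 of 12 with a median of 0.044 and 10 of 18 with a median of 0.25, so the order of the medians turned. For Hopx low against naive the counts were 12 of 12 with a median of 0.76 and 15 of 18 with a median of 0.36. With naive replicate 3 as the naive sample they were 6 of 12 with a median of 0.154 and 11 of 18 with a median of 0.168. The order of the medians thus turned in Hopx low as well. Under scaling by the median gene they were 9 of 12 with a median of 0.35 and 8 of 18 with a median of -0.058. For Hopx high against Hopx low they were 6 of 12 and 6 of 18, with medians of -0.042 and -0.13, and under that scaling 9 of 12 and 12 of 18, with medians of 0.21 and 0.12. These are descriptions, since members share libraries and the difference between the promoter classes was not tested. A member without the core is one with no match in the windows read. For Mthfd2 (chr6:83317555-83317854) and Slc3a2 (chr19:8713848-8714147) the window lies inside the gene. These minus-strand genes reach to 83326011 and 8723369, and the sequence at those ends was not read.

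Other ATF4 targets outside the module gave 2 calls, both higher in Hopx high against naive, among 15 tested of 20 listed, where 3.3% of all genes were called higher. Eif4ebp1, which encodes the translation repressor 4E-BP1, measured 257, 145 and 252 bases per Mb across Hopx high libraries, 170, 72.1 and 84.5 in Hopx low and 23.7, 29.7 and 50.4 in naive. Hopx high rose over naive by 2.49 on the log2 scale (adjusted p = 0.00872, limma), without overlap. Slc7a3, a carrier of cationic amino acids, rose by 2.53 (adjusted p = 0.0431), at 17.7, 11.6 and 6.67 in Hopx high against 0, 0.566 and 2.498 in naive. The list's median was 1.03 for Hopx high against naive, 0.70 for Hopx low against naive and 0.09 for Hopx high against Hopx low. Neither Hopx low against naive nor Hopx high against Hopx low had a call in it.

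The remaining lists of the pathway gave 0 calls in each comparison. They were 12 other cytosolic and 17 mitochondrial synthetases and their cofactors, 15 eIF2 kinases and initiation factors, 12 other serine, one-carbon and methionine enzymes, 12 other amino acid transporters, 19 genes of the endoplasmic reticulum unfolded protein response, 14 of mTORC1 nutrient sensing and 8 other C/EBP and ATF factors. Of these 109 genes, 7 had an unadjusted p under 0.05 for Hopx high against Hopx low, 14 for Hopx high against naive and 8 for Hopx low against naive. Over all genes tested the shares were 9.77%, 15.5% and 8.52%. The serine and one-carbon list had a median of 0.98 for Hopx high against naive, with 4 of 12 genes at an unadjusted p under 0.05, against that 15.5%. The unfolded protein response list had medians of -0.33 for Hopx high against Hopx low and -0.18 for Hopx high against naive, both below the all-gene medians. The mTORC1 list, at -0.35 and -0.52, and the other amino acid transporters, at -0.43 and 0.034, were below both as well.

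Markers of other cells moved with the groups in part. The 7 B cell markers summed to 2.74 to 8.45 bases per Mb across Hopx high libraries, 21.0 to 25.3 in Hopx low and 13.4 to 37.6 in naive, and Cd79a fell in Hopx high against Hopx low (-2.10, adjusted p = 0.0320, limma) and against naive (-3.03, adjusted p = 0.00771), in the direction of Ppp1r15a and Ddit3. The 11 myeloid and dendritic cell markers summed to 40.5 to 159 in Hopx high, 61.4 to 118 in Hopx low and 22.0 to 60.7 in naive. Most of that sum was Cst3, and the other 10 summed to 4.21 to 12.5 in Hopx high, 12.2 to 14.3 in Hopx low and 4.30 to 8.24 in naive. The 4 NK cell markers summed to at most 0.324, with Klrb1c and Klre1 at 0 in every library, and the 5 red cell and platelet markers summed to at most 5.25, with Pf4 and Ppbp at 0. The part of such cells in the differences was not tested.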

How the data were processed

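The data are 9 RNA libraries of mouse CD4 T cells (3 Hopx high, 3 Hopx low, 3 naive). Ion Torrent total RNA libraries were made after ribosomal depletion, per the labels' protocols, and the submitters' processing notes name bedtools and mm10. Which aligner, gene models and strand setting were used is unknown (not given in the sources used here).

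The authors deposited 1 table of coverage signal for 23171 gene rows. Tested on the values, each signal is the covered bases of the gene, with 1 base added, as a share of the library's total, times the mean total of 333 megabases, and whole bases were recovered in 100% of values within 1e-06. The deposited table also holds the ratio of group means and an unadjusted p-value for each comparison. That p was under 0.05 for 2 of 37 members in Hopx high against Hopx low, Slc7a1 and Ppp1r15a. Against naive it was under 0.05 for 7 in Hopx high (Atf3, Ddit3, Trib3, Chac1, Asns, Phgdh and Ppp1r15a). In Hopx low there were 6 (Atf4, Ddit3, Chac1, Phgdh, Mthfd2 and Gars). The same shares over all genes were not computed.

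From the recovered bases, values per Mb were computed without the added base. Genes whose mean reached 1 base per Mb entered the test, on log2(bases per Mb + 1) with limma 3.58.1 in R 4.3.3, with a variance trend and Benjamini-Hochberg adjustment over all genes at 0.05. The fit for Hopx high against Hopx low used the 6 Hopx libraries, and the fit against naive used all 3 groups, where the naive libraries 1A and 1B (replicates 1 and 2) were averaged. The code was tested on simulated data. Same-numbered Hopx high and Hopx low libraries deviated together over 7728 genes (r of 0.447, 0.425 and 0.171), which by the rule used makes them pairs. The fit reported has no replicate block, so its p-values for Hopx high against Hopx low leave the pairing out. The blocked value stands beside a result where it changes a call. Among other differences in that comparison the blocked adjusted p was 0.191 for Chac1, 0.163 for Cebpb and 0.301 for Ddit3 (limma). It was 0.336 for Slc3a2 and 0.377 for Atf4. For the rest, Slc7a1, Slc7a5 and Cars included, no blocked p is given, and none of them passed with the block. Naive numbers were not taken as pairs. Hopx low replicates 1 and 3 did deviate together with the naive samples of the same number (r of 0.662 and 0.609). For Hopx high these values were 0.286 and 0.0843. With 2 naive samples, their deviations from the group mean mirror each other, so these values cannot settle whether the numbers are pairs. A part of the replicate number in the differences from naive was not tested. Alternatives changed the scaling, pseudocount, filter, variance trend, the replicate block, which samples were fitted, and each replicate in turn.

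The members, the lists of related genes and the cell markers were chosen with earlier results of these data known. Members called in a comparison, 18 listed members and the 2 synthetases with the highest mean are given in every library. From other lists up to 4 called genes are named. Of 174 listed genes 3 had no row, and an older symbol found 4 others. Promoter windows are from RefSeq, and 6 members had none. Exon lengths and overlaps came from GENCODE. Tables and figures were made with Python 3.11.15, pandas 2.3.3 and matplotlib 3.10.9.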

Additional observations from a re-analysis of the deposited data

How the results depend on the processing

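For Hopx high against Hopx low, 0 members passed in the fit reported, 1 (Ppp1r15a) with the replicate block, and 0 to 1 with each replicate left out in turn. For Hopx high against naive, 3 passed, 1 with no filter on low values, and 2 to 12 with a replicate left out, the 12 being without naive replicate 3. For Hopx low against naive, 1 passed, 0 with scaling by the median gene, with no filter or with only these groups in the fit, 2 with naive replicates 1 and 2 as separate samples, and 1 to 10 with a replicate left out, the 10 being without naive replicate 3. With the replicate block both comparisons with naive kept their counts of 3 and 1. For 25 member differences, 520 values were recomputed under alternatives, of which 493 kept their direction and side of the threshold, 18 passed where they had not, 8 no longer passed and 1 reversed, Atf4 in Hopx high against naive, which ranged from -0.069 to 1.02 with a replicate left out (0.34 in the fit reported). The cause was not tested. Over all members, 60 of 108 differences changed sign under some alternative. Taking naive replicate 3 as the naive sample was chosen after the data were seen. Depth limits the members Slc7a11, Stc2, Asns, Atf3 and Pycr1 (81 and 0 bases of coverage), and Slc7a3 outside the module, in naive replicates 1 and 2. There a few reads decide the value, and intervals for reads cannot be had from base coverage.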
